A study of Rattus norvegicus with 12 samples.

Results

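The diploid rat embryonic stem (ES) cell line DA5-3 was set against round sperm cells on 6 of the 12 arrays of the study, 3 for each kind of cell, chosen by the sample titles. All cells came from inbred Dark Agouti (DA) rats. DA5-3 is 1 line, grown in N2B27-2i, a serum-free medium whose 2 inhibitors keep ES cells undifferentiated, and taken off the dish with trypsin. Round sperm cells are the haploid germ cells formed after meiosis. They were freshly isolated and not cultured, and how they were isolated, from how many animals and at what age are not given in the sources used here. For comparison, the other 6 arrays hold RAH-6 and RAH-2, 2 androgenetic haploid ES lines together called RahES, whose genomes come from a sperm alone and which were grown in the medium of DA5-3. They served to show where DA5-3 departs from other ES cells. The labels call the 3 arrays of each group biological replicates. Whether these were separate cultures or animals is not stated, so p-values measure the spread between these arrays, and their number limits the precision.

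ES cells divide rapidly with a short first gap phase. They make ribosomes and nucleotides at a high rate, run on glycolysis, in the mouse break down threonine for 1-carbon units, and grow as tight colonies held by E-cadherin on a laminin-rich matrix. Round spermatids have left the cell cycle. They carry stored messenger RNAs for the tail, the acrosome and the compaction of DNA, use testis-specific copies of several metabolic enzymes, and are fed lactate by Sertoli cells.

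Marker genes of each cell type were high in the group labelled as that type. Sox2, a transcription factor of the pluripotency network, had MAS5 signals of 7262, 8347 and 8626 on the DA5-3 arrays and 10.1, 1.30 and 9.70 on the round sperm arrays. Sall4, a zinc finger factor of the same network, read 9839.5, 7685 and 7813 on the DA5-3 arrays and 3.22, 7.42 and 14.7 on the round sperm arrays. Prm1, the protamine that replaces histones in sperm, read 25.8, 4.96 and 37.1 on the DA5-3 arrays and 61903, 71856 and 61201 on the round sperm arrays. For each of these genes the arrays of the lower group lay near background, here taken as a signal under 100, and those of the other group far above it. A gene under 100 on every array of a group gets a bound, the fold between 100 and the brighter group, written as at least that fold. Sox2 was thus at least 69.6-fold higher and Sall4 at least 72.5-fold higher in DA5-3, and Prm1 was at least 559-fold lower. Where only some arrays of a group were under 100, the fitted change is given. This held for 2 of 3 round sperm arrays in Slc2a1, Tdh, Gcsh, Slc7a1, Fasn, Klf5 and Col1a2 and for 1 in Tkt and Msmo1, whose changes are less certain. Pou5f1, Nanog, Pgk2 and Actb had no probe set of their own name on the array.

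Of 10538 genes with a signal of at least 100 on 3 arrays, 4552 (43.2%) were called higher in DA5-3 and 3105 (29.5%) lower, so that 72.7% differed between the cell types. Calls come from limma, fitted to all 12 arrays, and ask for an adjusted p (Benjamini-Hochberg) under 0.05 together with a change of 1 or more on the log2 scale in either direction. The median log2 fold change over all genes was 0.56, so a list is read below against that median and not against 0. When arrays were centred on their medians, the median over all genes went to -0.05 and the calls to 3611 higher and 3810 lower. The share of calls that were higher thereby went from 59.4% to 48.7%. For 3083 called genes the lower of both cell types was below 100 on all of its arrays, and only a bound could be given.

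The 12 genes with the largest fitted rises all had round sperm signals below 100 on all arrays, so their order is not read. Besides Sox2 they were Rhox5, an X-linked homeobox gene, Akr7a3, an aldehyde reductase, and Fn1, the matrix protein fibronectin. The others were Sall4, the arginine transporter gene Slc7a3, the glutathione peroxidase Gpx2, the apolipoprotein Apoc1, the actin-binding Cnn3 and Coro1c, the tetraspanin Cd9 and the transcription factor Mitf. Fn1 read 14916, 14844 and 14860.0 on the DA5-3 arrays and 23.7, 20.4 and 36.8 on the round sperm arrays, Slc7a3 16575, 15193 and 16265 on the DA5-3 arrays and 27.2, 58.1 and 17.2 on the round sperm arrays, and Cd9 6940.2, 8390.2 and 8663 on the DA5-3 arrays and 13.9, 11.4 and 39.9 on the round sperm arrays. The bounds over the 12 genes ran from at least 38.8-fold for Apoc1 to at least 138-fold for Slc7a3. The 12 largest fitted falls, all below 100 on all DA5-3 arrays, included genes known from spermatids. Tnp1 and Tnp2, transition proteins between histones and protamines, Prm1, the spermatid histone Hils1, the fatty acid binding protein Fabp9, Crisp2 and Adam3a of the sperm surface, the mitochondrial sheath protein Smcp, the tail scaffold Akap4, Plaat5, Cimip4 and Fam229b made up the 12. Tnp1 read 4.71, 1.07 and 1.000 on the DA5-3 arrays and 38757, 42060.0 and 42216 on the round sperm arrays (at least 353-fold lower), and bounds reached at least 559-fold in Prm1.

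**Figure D1:**
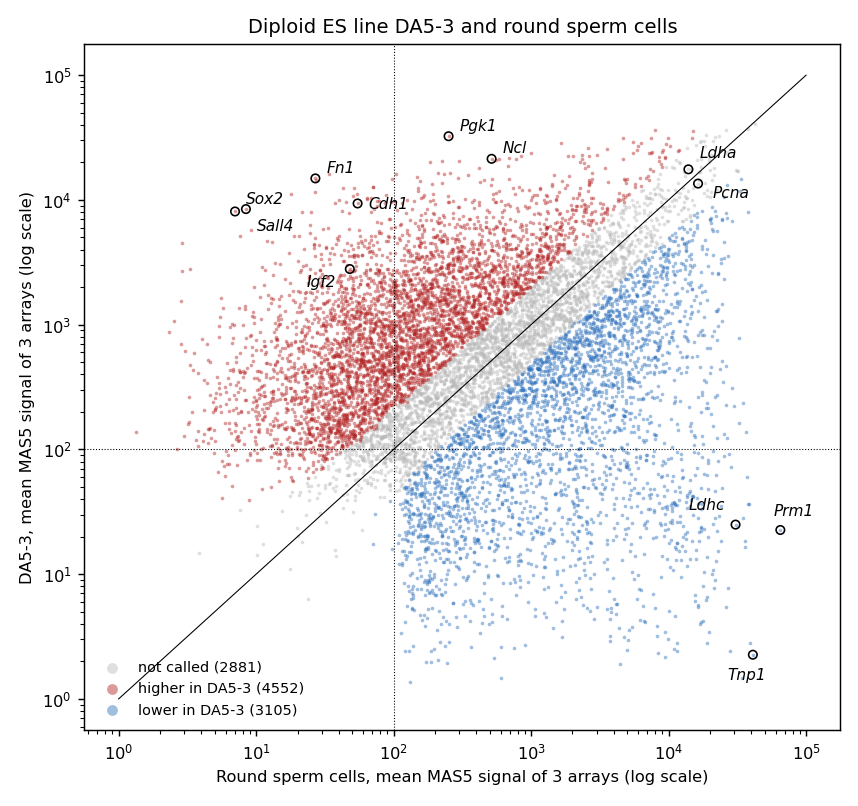
Mean MAS5 signal of each of 10538 genes in round sperm cells (horizontal, log scale) and in DA5-3 (vertical, log scale), over 3 arrays each, with red points called higher (4552), blue points called lower (3105) and grey points not called. Dotted lines mark a signal of 100, the diagonal marks equal signals, and Sox2, Fn1 and Cdh1 lie left of the dotted line while Prm1, Tnp1 and Ldhc lie below it.

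Arrays of DA5-3 correlated with each other at 0.974 to 0.977 over all probe sets and round sperm arrays at 0.967 to 0.969, against 0.570 to 0.580 between them. These values describe the arrays across genes, which are not independent replicates. The 3′ to 5′ signal ratio of Gapdh, a sign of RNA quality, was 1.35 to 1.69 in DA5-3 and 1.78 to 2.48 in round sperm, and that of actin 4.62 to 8.54 and 3.62 to 4.72. Of 15 measured blood and macrophage genes 12 were higher in round sperm, where the signals of all genes of this list on the array summed to 19940.0 to 21262, against 986 to 1222 in DA5-3. Aif1, a macrophage gene, read 12950.0, 11705 and 13262 in round sperm, while Ptprc, the pan-leukocyte marker, was below 100 on all 12 arrays. A second probe set of Aif1 read 110.3 in round sperm on average, so the sum rests largely on 1 probe set. Adgre1, Hbb and Mrc1 were higher in round sperm as well, with means of 2021, 1480 and 1244 there and 25.3, 43.9 and 13.3 in DA5-3. Laptm5 was the 1 member higher in DA5-3, at 200 against 83.9. The other 2 measured members, Lcp1 and Cd68, were not called, with means of 217 and 102 in round sperm and 190 and 106 in DA5-3. Of 10 Sertoli cell genes 4 were higher in round sperm (Cldn11 and Clu among them) and 4 in DA5-3 (Rhox5 and Vim among them). The median log2 fold change of this list was -0.001, against 0.56 for all genes, and so lay to the round sperm side of that median. Of 7 Leydig and peritubular genes 4 were higher in round sperm (Insl3 among them) and 3 in DA5-3 (Acta2 among them), against 29.5% and 43.2% of all genes. The part of these cells and of RNA quality in the results was not tested. In such bulk samples, fewer cells of a type and less RNA per cell cannot be told apart, and MAS5 sets every array to the same trimmed mean, so that changes in total RNA per cell are not seen.

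Genes for building ribosomes rose together in DA5-3. Of the ribosome assembly genes 45 of the 58 measured members were higher and 3 lower, with a median log2 fold change of 2.83 against 0.56 for all genes. Ncl, nucleolin, which serves ribosomal RNA synthesis, read 22661, 20057 and 21353 on the DA5-3 arrays and 614, 499.7 and 435 on the round sperm arrays, a log2 fold change of 5.34 ± 0.09 (SE, n = 3 against 3, adjusted p = 9.2e-16). The methyltransferase Fbl (log2 fold change 3.94), the small nucleolar RNP proteins Nhp2 (4.44) and Nop56 (3.97), the helicase Ddx21 (5.17) and Nolc1 (4.35) rose as well. The DA5-3 and sperm arrays of these genes did not overlap, which held for 90.7% of all genes tested. Against this, Nop10, which shares a small nucleolar RNP with Nhp2, read 4673 in DA5-3 and 10700.0 in round sperm on average and fell by 1.19 on the log2 scale, a call that was lost with quantile normalization (-0.65). The GTPase Gnl2 and Wdr74, of large subunit assembly, also fell.

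The promoter of Gnl3, nucleostemin, a nucleolar GTPase of dividing stem cells, is shown because it holds the E-box CACGTG, the letters that Myc binds, in capitals. It covers the 250 bases before the start of the gene, 5′ to 3′ on the minus strand, at chr16:6219783-6220032 of the RefSeq assembly GRCr8.
Gnl3: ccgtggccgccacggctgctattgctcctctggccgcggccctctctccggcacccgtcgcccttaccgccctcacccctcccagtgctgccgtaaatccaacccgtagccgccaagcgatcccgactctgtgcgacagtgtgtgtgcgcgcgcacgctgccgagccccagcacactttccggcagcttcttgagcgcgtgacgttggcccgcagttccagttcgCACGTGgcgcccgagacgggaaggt
Gnl3 itself read 4414, 4674 and 5026 on the DA5-3 arrays and 779, 849 and 846 on the round sperm arrays, and was called higher. Of 52 ribosome assembly genes with a 250-base promoter in RefSeq, 8 (15.4%) held these letters, which read the same on both strands. The share was 5 of 42 replication genes (11.9%) and 6.18% of all 27457 genes with a promoter. The letters hold a CG, and the median count of CG per promoter was 18 in this list and 6 in all. A match describes letters and does not show binding.

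Ribosomal protein genes rose by less but in 1 direction, with 30 of 40 higher, 0 lower (limma; at an unadjusted p below 0.05, 0 as well) and a median log2 fold change of 1.61. Rpl3, of the large subunit, read 33396, 29993 and 30294 on the DA5-3 arrays and 4374, 4523 and 4994 on the round sperm arrays (log2 fold change 2.75 ± 0.06). Rps29 and Rps24, of the small subunit, were not called, at log2 fold changes of 0.48 and 0.50. Copies of ribosomal protein genes elsewhere in the genome can share probes, which leaves single members uncertain. Of the tRNA synthetase genes, whose products load amino acids on transfer RNAs, 19 of 21 were higher and 0 lower. Rars1 (arginine, log2 fold change 4.38) and Gars1 (glycine, 4.08) rose most among those with the highest DA5-3 signals, while Kars1 and Vars1 were not called.

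Translation factors did not stand out as a list. 17 of 41 were higher, or 41.5%, close to the 43.2% of all genes, and the median of 0.70 fell to 0.09 with median centring. Single members differed widely. Eif1ax, the X-linked initiation factor that helps find the start codon, read 11471, 10653 and 11069 on the DA5-3 arrays and 71.6, 29.1 and 62.3 on the round sperm arrays (at least 95.5-fold higher), so that the sperm arrays were all near background. Eif4a1, the helicase that opens the messenger RNA, rose by 3.18 on the log2 scale. Eif4g3, a scaffold that male mouse meiosis needs, went the other way with 2198, 2335 and 2058 on the DA5-3 arrays and 14097, 15081 and 14356 on the round sperm arrays, and Eif2s1 and Eif3l were also lower in DA5-3.

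Among DNA replication genes, the MCM helicase, which opens the double strand, had raised subunits in DA5-3 and a subunit, Mcm7, that was not called. Of this list 28 of the 47 measured members were higher and 6 lower (median log2 fold change 2.73). Mcm2 (at least 35.3-fold higher), Mcm4 (at least 39.1-fold higher), Mcm5 (log2 fold change 4.73) and Mcm6 (3.90) rose, as did Mcm3 (4.08), named after its value was seen, whereas Mcm7 was not called and read 8129, 7551 and 7089.8 on the DA5-3 arrays and 6843, 7178 and 7078 on the round sperm arrays, with overlapping groups. Mcm5 read 4811, 4452 and 4404 on the DA5-3 arrays and 126, 172 and 176 on the round sperm arrays. Pcna, the sliding clamp of the polymerase, was high in both cell types, at 13521 ± 298 in DA5-3 and 16379 ± 341 in round sperm (SD, n = 3). Rnaseh2a, a nuclease that removes RNA from DNA, was higher in round sperm, with 1721, 1661 and 1316 on the DA5-3 arrays and 18094, 19140.0 and 19957 on the round sperm arrays, as was the clamp loader Rfc4, whose partner Rfc5 was at least 35.8-fold higher in DA5-3. Orc4, of the origin complex, and the polymerase subunit Pold3 were also called higher in round sperm, but each has a second probe set that read higher in DA5-3, at 838 against 123 for Orc4 and 902 against 634 for Pold3.

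The promoter of Mcm6, at chr13:42404353-42404602 on the minus strand of GRCr8, holds the E2F site TTTGGCGC, in capitals, the letters of the factor that starts the synthesis phase.
Mcm6: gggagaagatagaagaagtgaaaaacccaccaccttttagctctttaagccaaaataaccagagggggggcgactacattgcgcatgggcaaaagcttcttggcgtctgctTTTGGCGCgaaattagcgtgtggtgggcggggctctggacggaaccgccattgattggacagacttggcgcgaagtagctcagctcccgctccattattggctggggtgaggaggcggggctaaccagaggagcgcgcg
The letters TTTCCCGC or TTTGGCGC, on either strand, were found in 10 of 42 promoters of DNA replication genes (23.8%), against 1.34% of all promoters and 1 of 39 promoters of mitosis genes. Mcm6 read 7168, 7278 and 7323 on the DA5-3 arrays and 456, 420.4 and 541 on the round sperm arrays. The groups did not overlap, as in 90.7% of all genes tested.

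Mitosis genes were mixed, and their share of calls was near that of all genes. Of this list 21 of 45 were higher (46.7%, against 43.2%) and 8 lower, and the median of 0.69 went to 0.08 with median centring. Ccna2, the cyclin of replication and mitosis, read 10123, 7958 and 9609.8 on the DA5-3 arrays and 238, 195 and 162 on the round sperm arrays (log2 fold change 5.44 ± 0.12, adjusted p = 1.4e-14). Cdk1, the kinase that drives mitosis, rose by 1.66 on the log2 scale. Its partner Ccnb2 (-1.49) and Pttg1 (-1.28), the securin that delays the separation of chromatids, were lower in DA5-3, calls that were lost with quantile normalization (-0.99 and -0.75). For Ccnb1, another partner of Cdk1, the probe sets lay on opposite sides. The set used read 4270.4 against 9268 (log2 fold change -1.12), the other 5019.9 against 232, and their mean gave 1.61, so no direction is given for Ccnb1. Aurka, a spindle kinase, was not called and read 2908 against 4858.

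The promoter of Cdk1, at chr20:19265043-19265292 on the plus strand of GRCr8, has 2 copies of TTTGAA, the cell cycle homology region through which mitotic genes are kept off in resting cells, in capitals.
Cdk1: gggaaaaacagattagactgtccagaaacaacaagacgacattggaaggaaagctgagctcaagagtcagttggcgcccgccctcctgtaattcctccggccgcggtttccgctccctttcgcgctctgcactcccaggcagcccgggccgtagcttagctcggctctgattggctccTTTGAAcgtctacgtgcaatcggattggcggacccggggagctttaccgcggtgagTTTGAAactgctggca
TTTGAA, on either strand, occurred in 17 of 39 promoters of mitosis genes (43.6%), 4 of 42 of replication genes and 17.2% of all promoters. Cdk1 read 5217, 5388 and 5112 on the DA5-3 arrays and 1733, 1639 and 1575 on the round sperm arrays. It was higher on every DA5-3 array than on every sperm array, and the groups lay apart in 90.7% of all genes tested.

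Regulators of cell cycle entry differed by the cyclin. Ccnd1, which with Cdk4 drives the first gap phase, read 4754, 4256 and 4068 on the DA5-3 arrays and 52.4, 16.4 and 16.6 on the round sperm arrays, and Ccnd3 was at least 35.0-fold higher. Ccna1, the A-type cyclin of male germ cells, read 5.18, 1.81 and 2.61 on the DA5-3 arrays and 8309, 8327 and 8099 on the round sperm arrays (at least 71.2-fold lower), so the A-type cyclins Ccna1 and Ccna2 lay on opposite sides. Cdkn2c, a Cdk4 inhibitor known to act in mouse spermatogenesis, and Mxd1, an antagonist of Myc, were higher in round sperm, by log2 fold changes of -3.85 and -2.99 for DA5-3. The whole list counted 19 higher and 7 lower of 34 (55.9% and 20.6%, against 43.2% and 29.5% of all genes).

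Growth factor and receptor genes counted 26 higher and 2 lower of 31 (median log2 fold change 3.15). Il6st, the receptor chain gp130 that passes on the LIF signal, read 4066, 3917 and 3933 on the DA5-3 arrays and 217, 209 and 198 on the round sperm arrays. Igf2, the fetal insulin-like growth factor, was at least 24.2-fold higher, and Igf2r, the receptor that removes it, at least 31.0-fold higher. Spry2, a feedback inhibitor of ERK signalling, was at least 42.6-fold higher. Acvr2a, an activin receptor, and Igfbp7 were lower in DA5-3. Of the insulin and mTOR pathway 21 of 29 rose and 3 fell. Rheb, which activates mTOR, rose by 2.82 on the log2 scale. Mtor itself was not called and read 1121 against 1669.9. The kinase Gsk3b, which 2i medium inhibits, read 741, 656 and 436 on the DA5-3 arrays and 4778, 5509.7 and 6161 on the round sperm arrays. Gsk3b was called lower in DA5-3.

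**Figure D2:**
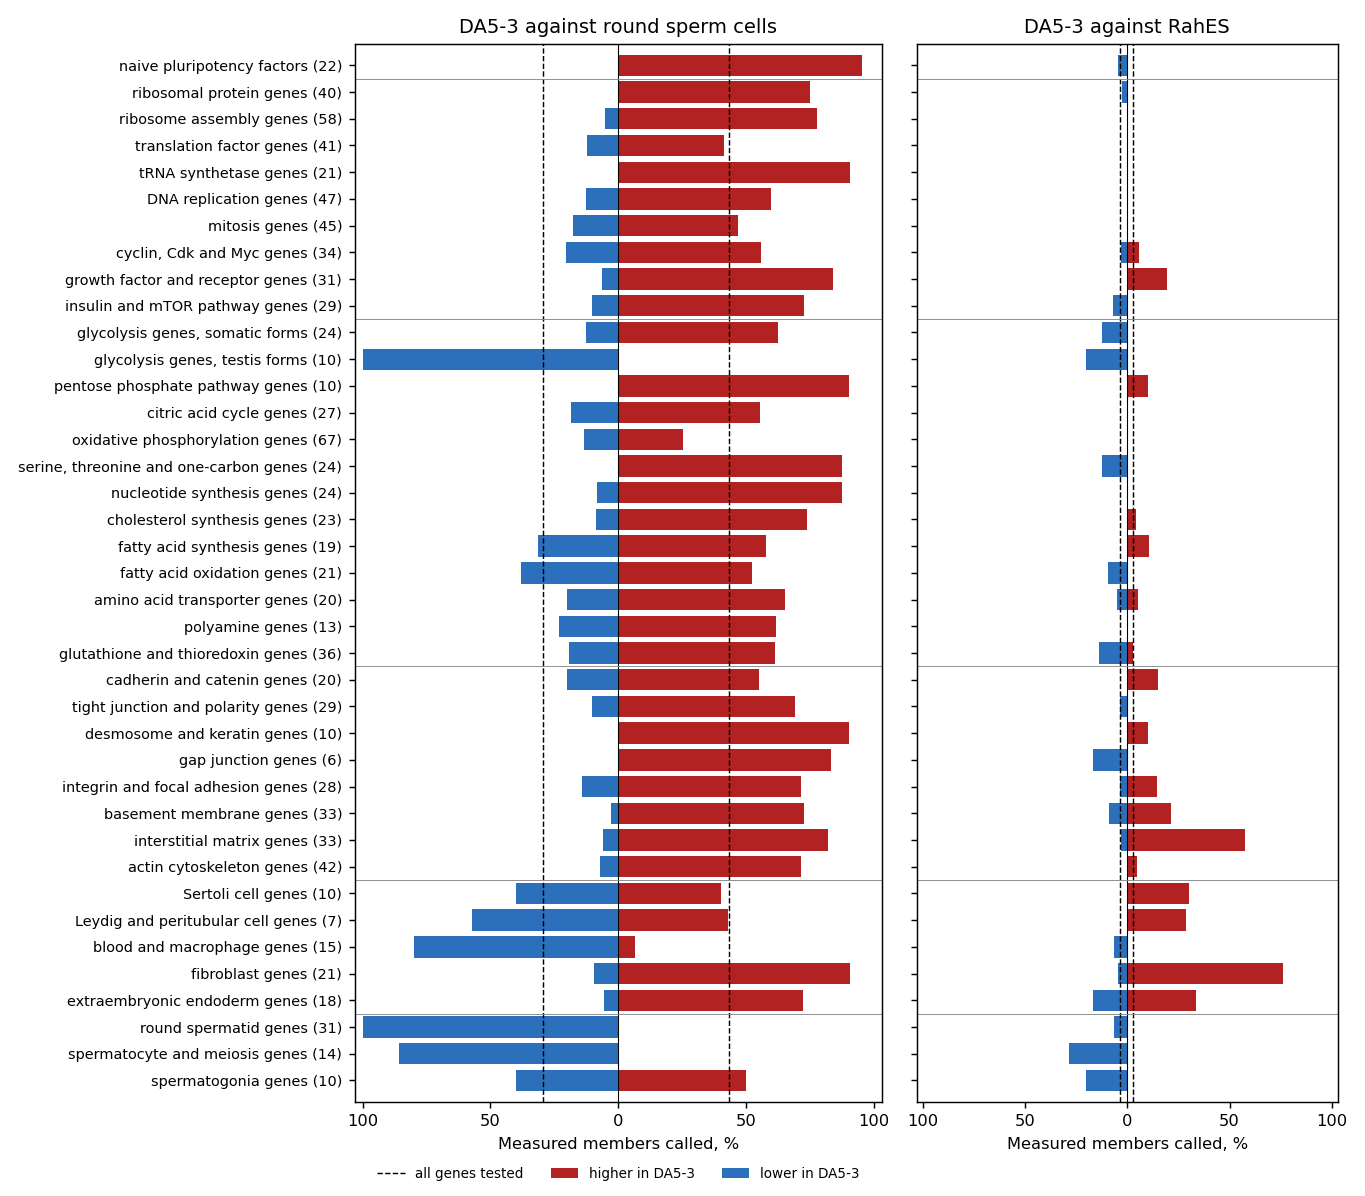
Share of the measured members of each of 39 gene lists called higher in DA5-3 (red, to the right) or lower (blue, to the left), in percent, against round sperm cells (left panel) and against RahES (right panel), with the number of measured members in parentheses. Dashed lines give the shares over all 10538 genes (43.2% and 29.5% against round sperm, 2.76% and 3.62% against RahES). In the right panel the bars of the fibroblast and interstitial matrix lists reach farthest to the right.

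For several steps of glycolysis, DA5-3 and round sperm carried messenger RNA of different genes. Of the somatic forms 15 of 24 were higher in DA5-3 and 3 lower, and of the testis forms 10 of 10 were lower. Pgk1, the X-linked phosphoglycerate kinase, read 33691, 31714 and 31813 on the DA5-3 arrays and 252, 298 and 203 on the round sperm arrays (log2 fold change 6.94 ± 0.10, adjusted p = 1.5e-16). The mutase Pgam1 rose by 4.57 and the lactate dehydrogenase chain Ldhb by 4.93 on the log2 scale. Ldha, the other somatic chain, was not called, with 17216, 17582 and 17964 on the DA5-3 arrays and 13351, 14673 and 13781 on the round sperm arrays. Its groups lay apart by a log2 fold change of 0.34 ± 0.04, under the size that was called. The testis chain Ldhc read 52.6, 6.72 and 15.6 on the DA5-3 arrays and 29629, 31139 and 31315 on the round sperm arrays (at least 265-fold lower), and Gapdhs, the sperm form of glyceraldehyde phosphate dehydrogenase, was at least 219-fold lower.

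At the first steps the somatic forms themselves lay on opposite sides. Hk1, the hexokinase that commits glucose, read 1553, 1345 and 1332 on the DA5-3 arrays and 12778, 15330.0 and 15380.0 on the round sperm arrays (log2 fold change -3.35 ± 0.08). The phosphofructokinases Pfkm (-3.79) and Pfkp (-1.94) were also lower in DA5-3. Hk2, Pfkl and the glucose transporter Slc2a1, named here after their values were seen, were higher, by at least 4.79-fold, at least 3.33-fold and a log2 fold change of 6.65. The transporter Slc2a3 and the isomerase Tpi1 were not called, at -0.29 and -0.67. A chain of pyruvate dehydrogenase changed by gene as well: X-linked Pdha1 read 15878, 16384 and 16444 on the DA5-3 arrays and 128, 104 and 79.9 on the round sperm arrays, and its copy without introns Pdha2, known from germ cells, read 80.4, 91.0 and 137 on the DA5-3 arrays and 2725, 2411 and 2680.0 on the round sperm arrays. Slc16a7, a monocarboxylate transporter for lactate and pyruvate, was at least 95.4-fold lower in DA5-3.

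**Figure D3:**
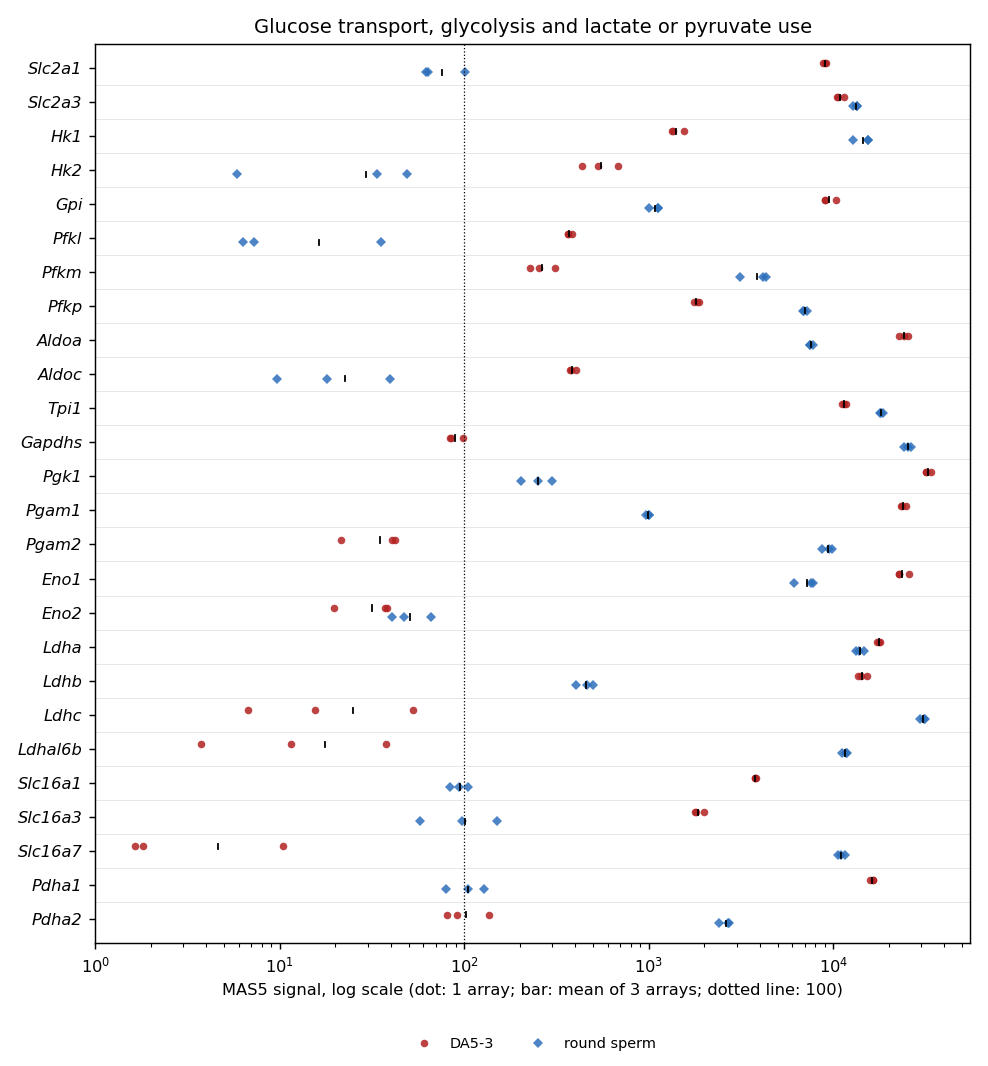
MAS5 signal (log scale) of glucose transport, glycolysis and lactate or pyruvate genes on each array of DA5-3 (red circles) and round sperm cells (blue diamonds), with black bars at the mean of 3 arrays and a dotted line at 100. Pgk1, Ldhb and Pdha1 lie to the right in DA5-3 and Ldhc, Gapdhs, Slc16a7 and Hk1 in round sperm, while the arrays of Ldha lie close together.

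The branches that lead from glucose into building blocks were raised. Of the pentose phosphate genes 9 of the 10 measured members were higher and 0 lower, among them the transketolase Tkt, which read 5264, 4947 and 4981 on the DA5-3 arrays and 89.5, 111 and 102 on the round sperm arrays (log2 fold change 5.44 ± 0.07), and Pgd, an NADPH-forming dehydrogenase (3.34). Pgls was not called. Nucleotide synthesis genes counted 21 higher and 2 lower of 24, with a median of 3.63. The salvage enzymes Aprt (4.84) and Hprt1 (4.25), the dUTPase Dut (3.63) and Prps1 (4.19), which makes the activated ribose, rose. Gmps, of GMP synthesis, read 3062, 3027 and 3045 on the DA5-3 arrays and 12934, 12748 and 12735 on the round sperm arrays and was lower, as was Ctps2.

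Serine, threonine and 1-carbon genes counted 21 higher and 0 lower of 24 (median log2 fold change 3.08). Tdh, threonine dehydrogenase, on which mouse ES cells depend, read 10106, 9614 and 9806 on the DA5-3 arrays and 104, 99.6 and 99.4 on the round sperm arrays (log2 fold change 6.40 ± 0.05, adjusted p = 1.2e-18). Psat1, of serine synthesis, was at least 109-fold higher, and Gcsh, of the glycine cleavage system, rose by 6.22 on the log2 scale. Mtrr, Psph and Aldh1l1 were not called. Amino acid transporters counted 13 higher and 4 lower of 20. The arginine carriers Slc7a3 (at least 138-fold higher) and Slc7a1 (log2 fold change 5.76) and the leucine carrier Slc7a5 (4.35) rose, and the taurine carrier Slc6a6 read 686, 604 and 620.1 on the DA5-3 arrays and 3988, 4108 and 3863 on the round sperm arrays, higher in round sperm. Slc7a11, the cystine carrier, was not called.

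Oxidative phosphorylation genes had the smallest share of called members among the metabolic lists. Of 67 measured subunits 17 (25.4%) were higher and 9 (13.4%) lower, both below the shares of all genes. Their median of 0.36 turned to -0.25 with median centring and stood at 0.64 with quantile normalization, so no direction is given for the list. Single subunits changed by form: X-linked Cox7b read 21282, 19636 and 20186 on the DA5-3 arrays and 264, 207 and 204 on the round sperm arrays, and the testis form Cox6b2 read 646, 630.0 and 665 on the DA5-3 arrays and 19622, 19092 and 18621 on the round sperm arrays. Cox7b2, another testis form, fell by 2.96 on the log2 scale and still read 3098 in DA5-3. Atp5f1b, the catalytic chain of ATP synthase, was not called at 0.80. Of the citric acid cycle genes 15 of the 27 measured members were higher and 5 lower (55.6% and 18.5%, against 43.2% and 29.5% of all genes). The malate dehydrogenases Mdh1 (4.00) and Mdh2 (4.23) rose and Sucla2 (-2.12) and Idh1 (-2.50) fell.

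Lipid genes split by pathway and by enzyme. Of the cholesterol genes 17 of the 23 measured members were higher and 2 lower. Msmo1 rose by 4.98 and Dhcr7 by 3.70 on the log2 scale, while Fdps, Idi1 and Sqle, which act before them, were not called. Fasn, the fatty acid synthase, read 10605, 9235 and 9377 on the DA5-3 arrays and 78.3, 51.4 and 106 on the round sperm arrays (log2 fold change 6.73 ± 0.15), and the desaturase Scd2 rose by 5.59. The acyltransferase Dgat2, which makes triglycerides, read 153, 144 and 174 on the DA5-3 arrays and 8259.5, 8723 and 8773 on the round sperm arrays and fell with Dgat1 and Agpat2. Of the fatty acid oxidation genes 11 of the 21 measured members were higher and 8 lower (52.4% and 38.1%, against 43.2% and 29.5% of all genes). Of the carnitine acyltransferases Cpt1b, the muscle form, read 183, 129.9 and 114 on the DA5-3 arrays and 12080.0, 11625 and 11513 on the round sperm arrays and fell with Crat (-5.88). Cpt1a, the liver form, was at least 4.69-fold higher, although its second probe set read 71.4 in DA5-3 and 162 in round sperm.

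Polyamine and redox genes also held testis forms that were higher in round sperm. Odc1, ornithine decarboxylase, rose by 1.27 on the log2 scale. Its inhibitors went apart, with Oaz1 higher in DA5-3 (1.58) and the testis antizyme Oaz3 at least 327-fold lower. With median centring Odc1 (0.67) and Oaz1 (0.97) were no longer called. Thioredoxin Txn1 read 22752, 20953 and 20852 on the DA5-3 arrays and 569, 639.8 and 851 on the round sperm arrays, and Txnrd3, a reductase known from mouse spermatids, read 158, 168 and 138 on the DA5-3 arrays and 14659, 14603 and 13682 on the round sperm arrays. Gpx2, a glutathione peroxidase, had a mean signal of 11596 in DA5-3 and was below 100 on all round sperm arrays, and Gpx4, which is built into the sperm midpiece, fell by 2.22 on the log2 scale. The redox list counted 22 higher and 7 lower of 36 (61.1% and 19.4%), and the polyamine list 8 and 3 of 13 (61.5% and 23.1%). Over all genes these shares were 43.2% and 29.5%.

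Adhesion genes as a class counted 146 higher and 17 lower of 201 measured, or 72.6% and 8.46%, with a median log2 fold change of 2.90. Growth genes counted 226 and 34 of 346 (65.3% and 9.83%, median 1.86) and metabolism genes 177 and 59 of 314 (56.4% and 18.8%). Cdh1, E-cadherin, the main adhesion protein of ES colonies, read 9754, 9390.1 and 8955 on the DA5-3 arrays and 70.2, 36.9 and 57.0 on the round sperm arrays (at least 80.8-fold higher). Ctnnb1, beta-catenin, which binds its tail, rose by 3.30 and Ctnna1, which links it to actin, by 3.99 on the log2 scale. Of the cadherin list 11 of 20 rose and 4 fell (55% and 20%, against 43.2% and 29.5% of all genes). Nectin3, which in mouse testis joins spermatids to Sertoli cells, read 1285, 1634 and 1519.8 on the DA5-3 arrays and 16937, 16360.0 and 17213 on the round sperm arrays, and the alpha-catenin Ctnna2 was at least 45.8-fold lower.

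Epithelial junctions were raised with it. Of tight junction and polarity genes 20 of the 29 measured members were higher and 3 lower. Occludin, Ocln, read 2442, 2854 and 2878 on the DA5-3 arrays and 11.8, 29.2 and 22.5 on the round sperm arrays (at least 23.6-fold higher), Jam2 was at least 27.9-fold higher and Cldn5 at least 11.9-fold higher, while the scaffold Tjp1 was not called at 0.79 and the Sertoli claudin Cldn11 was higher in round sperm. Of desmosome and keratin genes 9 of 10 rose, with Krt18 at least 26.7-fold higher and Dsp, desmoplakin, at least 12.2-fold higher. Gja1, connexin 43, the gap junction protein of ES cells, read 15650.0, 14796 and 15551 on the DA5-3 arrays and 147, 147 and 149 on the round sperm arrays (log2 fold change 6.55 ± 0.05), and 5 of 6 gap junction genes rose.

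Attachment to matrix showed the same side. Itgb1, the beta chain of most laminin and fibronectin receptors, read 2964, 2486 and 2781 on the DA5-3 arrays and 69.1, 65.7 and 55.1 on the round sperm arrays (at least 23.7-fold higher), and its activator Fermt2, kindlin 2, was at least 41.2-fold higher. Of the integrin list 20 of 28 rose and 4 fell. The adaptors Pxn, with 769.6, 666 and 623 on the DA5-3 arrays and 3009.8, 3426 and 3083 on the round sperm arrays, and Bcar1 (-2.98) were lower in DA5-3, and Ilk was not called. Of basement membrane genes 24 of the 33 measured members were higher and 1 lower. Nid1, nidogen, was at least 88.7-fold higher, and Lama1, a laminin chain of the early embryo, rose by 4.84 on the log2 scale, while Lamb3 was at least 9.03-fold lower. Nid2 was not called. Extraembryonic endoderm genes, a list that shares Lama1, Lamb1, Sparc, Col4a1 and Col4a2 with these, counted 13 higher and 1 lower of 18. Its genes summed to 20459 to 21480.0 in DA5-3 and 1992 to 2199 in round sperm. Of its defining factors, Gata4 read 146, 140.0 and 157 in DA5-3 and Gata6 160.1, 182 and 191. Sox17 read 254, 228 and 306 there and Sox7 168, 177 and 137. Their means in round sperm were 82.0, 58.8, 9.62 and 10.1 in the same order, and Gata4 was not called. Gata6, Sox17 and Sox7 were named after their values were seen. Against RahES 6 of this list, Gata4 among them, were higher in DA5-3 and 3 lower (2.76% and 3.62% of all genes). The part of such cells in the basement membrane values was not tested.

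Genes of the interstitial matrix counted 27 higher and 2 lower of 33. The fibroblast list, of which 12 measured members are also in it, counted 19 and 2 of 21. Its genes on the array summed to 73914 to 79076 in DA5-3 and 3961 to 4301 in round sperm, and the part of such cells in the matrix values was not tested. Timp1, a protease inhibitor, read 9928, 9589.5 and 9944 on the DA5-3 arrays and 114, 157 and 152 on the round sperm arrays, and Col6a1, of collagen VI, was lower with 148, 102 and 73.9 on the DA5-3 arrays and 1461, 1911 and 1586 on the round sperm arrays. Actin genes counted 30 higher and 3 lower of 42. Arpc1b and Actr2, of the Arp2/3 complex that branches filaments, rose by 5.85 and 4.99 on the log2 scale, and the testis capping protein Capza3 was at least 186-fold lower. Other probe sets of Actr2 rose by less, with means of 5801 in DA5-3 against 1139 in round sperm and 13085 against 2328. Actg1, a cytoplasmic actin, was not called and read 32406 against 23386, while its second probe set read 14700.0 against 151.

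**Figure D4:**
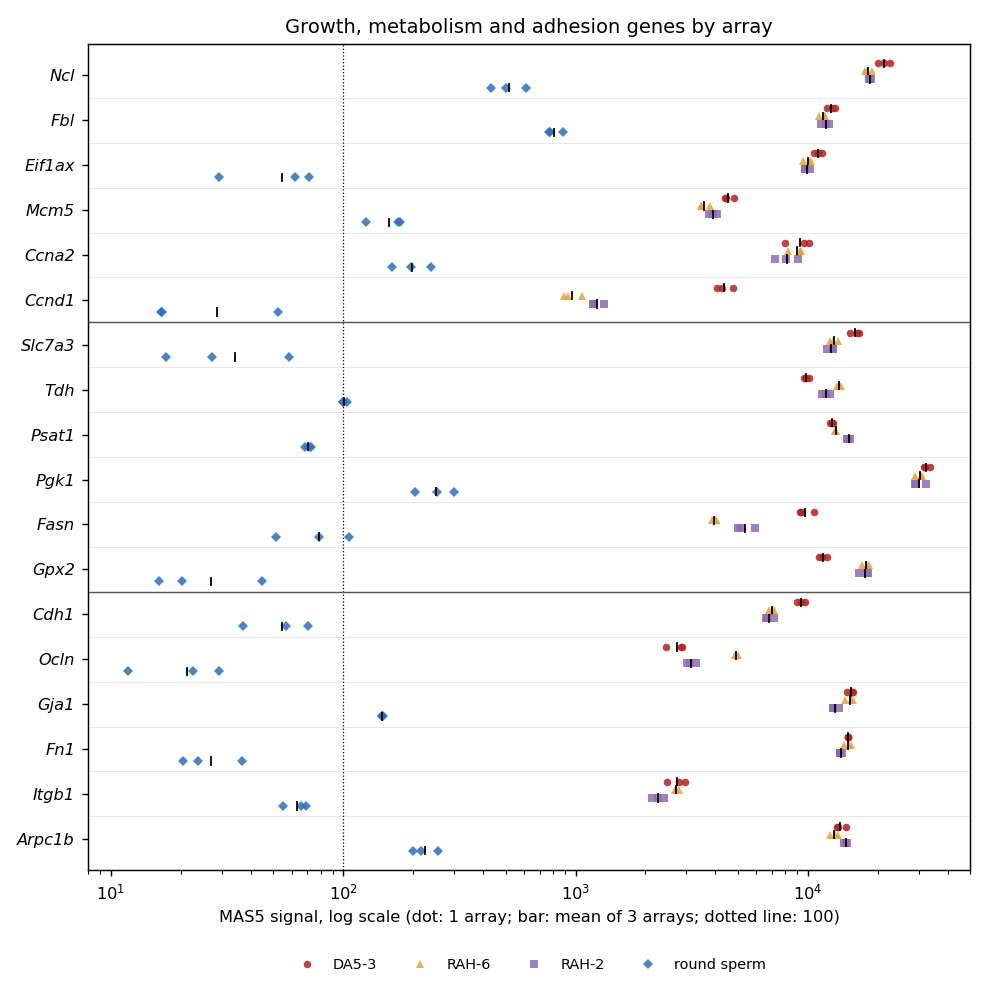
MAS5 signal (log scale) of 6 growth, 6 metabolism and 6 adhesion genes on each array of DA5-3 (circles), RAH-6 (triangles), RAH-2 (squares) and round sperm cells (diamonds), with black bars at the mean of 3 arrays and a dotted line at 100. For each of the 18 genes the round sperm arrays lie to the left of the DA5-3 arrays, and for Ccnd1 the RahES arrays lie between them.

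Naive pluripotency factors counted 21 of 22 higher (median log2 fold change 5.01), with Klf2 at 6.01 and Klf5 at 6.76. The exception was Klf4, a reprogramming factor also known from mouse spermatids, which read 5734, 6215 and 6672 on the DA5-3 arrays and 7279.9, 6273 and 6701 on the round sperm arrays and was not called. For Klf5 another probe set read 6748 in DA5-3 and 1956 in round sperm on average, so the size of its rise differs between probe sets. All 31 measured round spermatid genes were lower in DA5-3, with a median of -8.23, and 12 of 14 meiosis genes. Meiotic genes were not at background in DA5-3: Sycp3, of the synaptonemal complex, read 704, 794 and 697 there against 17199, 14971 and 13913 in round sperm, and the cohesin Stag3 732, 713 and 759 against 9708, 10392 and 9992. H19, an imprinted RNA beside Igf2, read 3610.2, 3755 and 3840.4 on the DA5-3 arrays and 143, 155 and 138 on the round sperm arrays.

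The promoter of Tnp1, at chr9:82044279-82044528 on the minus strand of GRCr8, is shown as the counterpart from the sperm side. It holds TGACGTCA, the full site of the CREM family that switches on spermatid genes, in capitals, and 5 CG dinucleotides, where Gnl3 has 30, Mcm6 16 and Cdk1 19.
Tnp1: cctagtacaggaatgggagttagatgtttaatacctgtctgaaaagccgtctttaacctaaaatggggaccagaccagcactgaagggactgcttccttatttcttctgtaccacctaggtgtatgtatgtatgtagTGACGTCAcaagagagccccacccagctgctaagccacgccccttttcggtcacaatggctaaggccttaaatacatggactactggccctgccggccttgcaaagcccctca
TGACGT, on either strand, occurred in 4 of 22 promoters of round spermatid genes (18.2%), in 21.4% of those of replication genes and in 7.68% of all promoters. The median count of CG dinucleotides per promoter was 4.5 in the round spermatid list, 18 in ribosome assembly and 18 in replication, against 6 in all promoters.

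DA5-3 and RahES are set against the same round sperm arrays, so the difference between both contrasts equals DA5-3 minus RahES, and only that difference was tested. RahES against round sperm gave 43.2% of genes higher and 28.9% lower. The difference was called in 673 genes, 6.39% of those tested, 291 (2.76%) higher and 382 (3.62%) lower in DA5-3. Growth genes departed in 8 higher and 4 lower of 346, and metabolism genes in 6 and 16 of 314, while adhesion genes did in 36 and 7 of 201. Against RAH-6 alone 293 genes (2.78%) were higher and 485 (4.6%) lower, and against RAH-2 alone 334 (3.17%) and 346 (3.28%). Between the haploid lines themselves 73 genes were called.

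Among the 10 genes that most exceeded RahES in DA5-3 were 3 fibrillar collagen genes and the mesenchymal cadherin gene Cdh11. Col1a1, a chain of collagen I, read 5793, 6052 and 6123 in DA5-3, 392, 354 and 424 in RAH-6, 89.2, 543 and 123 in RAH-2 and below 100 on all round sperm arrays. Its difference from RahES was a log2 fold change of 4.39 ± 0.47 (limma, adjusted p = 8.1e-06), and DA5-3 stood above every other array. The arrays of DA5-3 and RahES did not overlap in 40.2% of all genes tested. Col5a2, of collagen V, read 12243, 12337 and 12877 in DA5-3, 1319.8, 1405 and 1200.0 in RAH-6 and 97.9, 1117 and 151 in RAH-2. The log2 fold change against round sperm was 6.24 in DA5-3 and 1.88 in RahES. For Col1a2 these values were 6.42 and 2.06. Cdh11 was at least 38.4-fold higher than round sperm in DA5-3 and at least 2.86-fold in RahES, with a difference between them of 3.75 ± 0.54 on the log2 scale. RAH-2 replicate 2 read high in these 4 genes next to the other RAH-2 arrays, and of 17 fibroblast genes at or above 100 on some RAH-2 array, 16 were highest on it. Without that array the differences from RahES were 4.76, 4.87, 4.79 and 4.28 for Col1a1, Col5a2, Col1a2 and Cdh11. They had to be larger than with it, since the array left out is the highest of its line in these genes.

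Rbms3, an RNA-binding protein, the matrix proteoglycan Vcan and the secreted Ccdc80 were raised over round sperm in DA5-3 and not called in RahES. Vcan read 696, 1123 and 1163 in DA5-3, 94.8, 49.7 and 79.2 in RAH-6, 24.2, 105 and 19.1 in RAH-2 and 42.7, 32.3 and 18.3 in round sperm (difference 3.81 ± 0.35). Igf2 read 2961, 2693 and 2724, 312, 315 and 292, 273, 275 and 157 and 8.16, 67.2 and 68.7 in the same order, a difference from RahES of 3.32 ± 0.32 (adjusted p = 3.2e-06). RahES stood between DA5-3 and round sperm for it. These values rest on 1 of 4 Igf2 probe sets, since the others were near background in all cells. The nuclear receptor Nr2f2 and the X-linked kinase Nrk were the remaining rises. A second probe set of Nr2f2 read 183 in DA5-3 and 219 in round sperm on average, against 482 and 117 of the set used, so the direction against round sperm differs between its probe sets.

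The interstitial matrix list as a whole departed, with 19 of 33 members higher and 1 lower in DA5-3 than in RahES (2.76% and 3.62% of all genes), and a median difference of 1.57. Against RAH-6 alone 19 and against RAH-2 alone 20 were higher. The fibroblast list moved with it, at 16 higher and 1 lower of 21. Its summed signal ran from 40068 to 41149 in RAH-6 and from 27917 to 38087 in RAH-2, below the sums in DA5-3 given above. Fn1, a member that ES cells themselves express, read 14873 in DA5-3 and 14365 in RahES (difference 0.05 ± 0.09) and did not depart. Whether cells of another kind in the DA5-3 culture carry the matrix difference was not tested.

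Other adhesion genes split. Cdh2, N-cadherin, read 622, 523 and 650.2 in DA5-3, 119, 110.2 and 102 in RAH-6 and 102, 148 and 78.0 in RAH-2 (difference 2.30 ± 0.19), while E-cadherin, Cdh1, was not called at 0.44 ± 0.11. Vim, the intermediate filament of mesenchymal cells, differed by 2.94, and the actin genes Acta2 and Tpm2 by 2.61 and 2.46 on the log2 scale. Without RAH-2 replicate 2, where Vim read 1231 against 198 and 271, these differences were 3.33, 2.79 and 2.61. They had to rise, since for these genes the array left out read above the other RAH-2 arrays on average. On the other side, the laminin receptor chain Itga6 (-1.51) and the claudin Cldn4 (-1.59) were lower in DA5-3 than in RahES. Cldn4 read 276, 268 and 273 in DA5-3, 1176, 1096 and 1026 in RAH-6 and 575, 709 and 698 in RAH-2, all above round sperm.

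Growth genes departed in few members, and 6 of the 8 that were higher belonged to the growth factor list. Of that list 6 of 31 were higher in DA5-3 than in RahES and 0 lower, against 2.76% and 3.62% of all genes. After Igf2 came Pdgfra, a PDGF receptor, at 2.68 ± 0.25 on the log2 scale, with 2 of 6 RahES arrays under 100. Tgfb2 was at least 2.30-fold higher and Igf1 at least 1.54-fold higher than in RahES, which was under 100 on all arrays for both. Igf1 read 129.6, 199 and 166 in DA5-3 and 198, 343 and 365 in round sperm. Ccnd1 read 4754, 4256 and 4068 in DA5-3, 1070.5, 927 and 896 in RAH-6 and 1327, 1198 and 1184 in RAH-2 (difference 1.98 ± 0.19), so both kinds of ES cell exceeded round sperm and DA5-3 did by more. Cdkn1c, an imprinted Cdk inhibitor, was also higher than in RahES (1.21). Of 171 genes for ribosome assembly, tRNA synthetases, DNA replication and mitosis, limma called 0 between DA5-3 and RahES. At an unadjusted p below 0.05 there were 95, 69 of them higher in DA5-3 (36 in ribosome assembly, where 1 was lower), all with an absolute log2 difference of at most 0.70. The share of all genes at that cut is not given, so these counts are not read as a trait of the lists.

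Of 314 metabolism genes 6 were higher in DA5-3 than in RahES (1.91%) and 16 lower (5.10%), against 2.76% and 3.62% of all genes, with a median difference of -0.07. Gsta4, a glutathione transferase, read 876, 942 and 785 in DA5-3, 4501, 4643 and 4357 in RAH-6, 5191, 4495 and 4581 in RAH-2 and 441, 422 and 440.1 in round sperm (difference -2.40 ± 0.07). Pfkp (-1.47), Phgdh, the first enzyme of serine synthesis (-1.28), Cbs (-2.34) and Cpt1a (-1.62) were lower as well. Fasn (1.08) and Scd (1.19), of fatty acid synthesis, were higher. Pfkp read 1815, 1756 and 1863 in DA5-3, 4681, 4681 and 4989 in RAH-6, 5443, 5186 and 5313 in RAH-2 and 6843, 7211 and 6944 in round sperm, so that RahES lay nearer to round sperm for it.

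Some genes of germ cells were lower in DA5-3 than in RahES. Of the sperm lists together 8 of 55 measured members (14.5%, against 3.62% of all genes) were lower and 0 higher, with a median difference of -0.15 (limma; 7 were higher at an unadjusted p below 0.05). By list these were 2 of 31 round spermatid genes, 4 of 14 meiosis genes and 2 of 10 spermatogonia genes. The spermatogonia genes were Sohlh1 and Itga6, the laminin receptor chain given above, so the pooled share does not describe the round spermatid list. Sycp3 read 704, 794 and 697 in DA5-3, 3052, 2963 and 3021 in RAH-6 and 2345, 3043 and 2809 in RAH-2 (difference -1.95 ± 0.08, adjusted p = 2.2e-09), and all were below the round sperm arrays. The cohesin Smc1b (-1.33) and the spermatid genes Gsg1 (-2.28) and Tekt2 (-1.35) were lower too. Among the testis forms of metabolic genes, Pdha2, with 2 of 3 DA5-3 arrays under 100, differed by -1.80 and Txnrd3 by -1.77 on the log2 scale. Cpt1b, the muscle form, which was also higher in round sperm than in DA5-3, differed by -1.45.

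Of the 10 genes that fell most short of RahES in DA5-3, 5 were not called between DA5-3 and round sperm. S100a16, a calcium-binding protein, and Mlana, a melanosome gene, were below 100 on all DA5-3 and all round sperm arrays and were at least 3.08-fold and at least 2.93-fold lower in DA5-3 than in RahES. Nppb, a natriuretic peptide, read 157, 148 and 126 in DA5-3, 91.7, 135 and 78.4 in round sperm, 2106, 2186 and 2542 in RAH-6 and 1156, 1565 and 1334 in RAH-2 (difference -3.47 ± 0.14). Egr2, an early response factor, and Trh, a peptide hormone, had differences of -3.21 and -3.14 and were likewise not called against round sperm in DA5-3, Egr2 with 2 of 3 DA5-3 arrays under 100. Armcx4 was at least 1.51-fold higher than round sperm in DA5-3 and at least 10.1-fold higher in RahES. S100a1 was under 100 on 1 of 3 DA5-3 arrays and on all round sperm arrays. Adm, adrenomedullin, was under 100 on all arrays of DA5-3 and round sperm, so no level is read between them, and it was at least 4.94-fold lower in DA5-3 than in RahES. Fstl1 read 144 against 50.8 in round sperm, but a second probe set read 144 against 166, so no direction against round sperm is given. Skap1, an adaptor of immune cells, was lower in DA5-3 than in round sperm (-2.09) and not called in RahES (0.58). All 20 genes were called in the same direction against RAH-6 alone and against RAH-2 alone. Picking them by size and by arrays that do not overlap makes this likely, so it is no separate support.

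**Figure D5:**
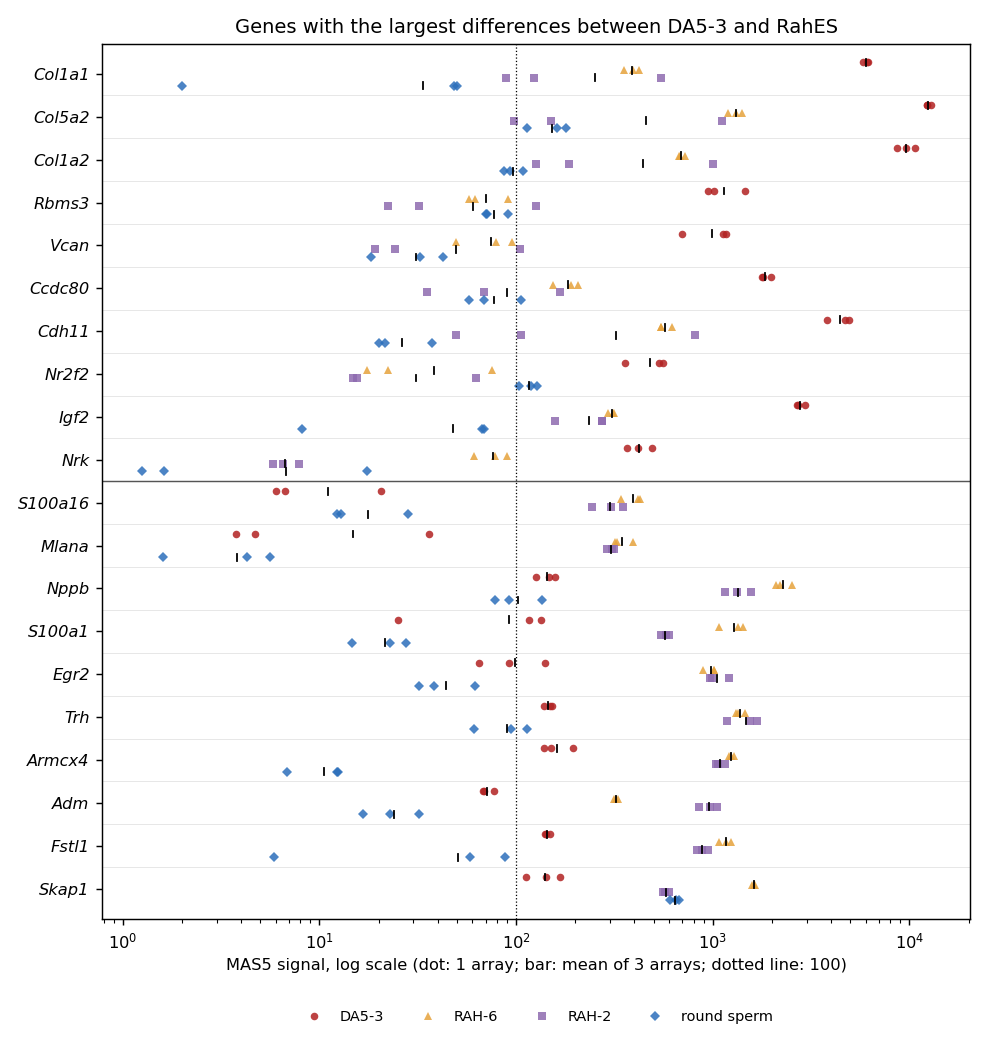
MAS5 signal (log scale) of the 10 genes most raised and the 10 most lowered in DA5-3 against RahES on each array of DA5-3 (circles), RAH-6 (triangles), RAH-2 (squares) and round sperm cells (diamonds), with black bars at the mean of 3 arrays and a dotted line at 100. These 20 genes were picked for this difference and for DA5-3 arrays that overlap no RahES array. In Col1a1, Col5a2, Col1a2 and Cdh11, 1 RAH-2 array stands to the right of the other RAH-2 arrays.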

How the data were processed

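Expression was measured on 12 rat arrays of 31099 probe sets, 3 for each of 4 groups. The deposited values are log2 MAS5 signals, per the submitters' processing notes; the MAS5 version is not given in the sources used here. Linear signals had a 2% trimmed mean near 500 on every array and no centring between arrays. A deposited array report was not used, since its array names occur in no label.

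Signals were returned to the linear scale, rescaled to a 2% trimmed mean of 500, raised by 16 and taken to log2. Of the probe sets 20826 named 1 gene, 436 several and 9831 none, with 57 controls. RefSeq (GRCr8) matched 20764 and changed 0 symbols. Of 14217 genes on the array, 10538 had a signal of at least 100 on 3 arrays. The probe set with the highest mean signal stood for a gene, which applied to 2649 genes with several. Because levels of different probe sets are not comparable, signals were set only against the same gene in other arrays. Genes with a close copy may share signal.

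limma 3.58.1 (R 4.3.3) was fitted to all 12 arrays with 1 mean per group and variances following a trend. RahES is the mean of RAH-6 and RAH-2 with equal weight, and the test of DA5-3 minus RahES served as the test of the difference between both contrasts with round sperm. Adjusted p-values (Benjamini-Hochberg) were taken over all genes tested, and the call rule is that of the report. A bound is the mean log2 signal of the brighter group against a signal of 100 with the same offset. The fit was tested on simulated data with 200 changed genes of 10538. For DA5-3 against round sperm 89% of changes of 1.5 and 98% of changes of 2 (log2) were recovered, with 6 false calls. For DA5-3 against RahES the shares were 96% and 98%, with 1 false call. In the measured data 72.7% of genes were called between DA5-3 and round sperm. Recovery with so many changed genes was not tested, so these shares do not describe that comparison.

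The gene lists (39, with 1326 entries) and the members named were chosen with earlier results of these data known. Lists were described by counts and medians, with no set test. Genes named were the 12 largest rises and falls against round sperm and the 10 against RahES among called genes with arrays that do not overlap. Of each list the rule added up to 6 members called higher, 4 lower and 3 not called, all by signal, and 4 called against RahES by size, and Sox2, Sall4, Prm1, Pou5f1, Nanog, Tnp1, Igf2, H19, Cdh1, Ldha, Ldhc, Pgk1, Pgk2 and Actb were looked up. Gnl3, whose promoter is printed, was chosen after its values were seen. Promoters are RefSeq's, 250 bases before the start of 27457 genes, searched on both strands. Shares count genes, and a gene with several promoters counted if any of them matched.

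Of 66 array pairs 0 were identical. Hk2, Pfkl, Slc2a1, Mcm3, Gata6, Sox17, Sox7 and the genes with opposite directions were named after their values were seen. The replicate numbers of the labels do not pair arrays: deviations of arrays with the same number correlated at -0.086 to 0.060, and no block was used. Alternatives changed the offset, filter, scaling, choice of probe set, weights and arrays, the replicate block among them.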

Additional observations from a re-analysis of the deposited data

Results flagged for a closer look

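For 8 genes DA5-3 and RahES were called in opposite directions against the same round sperm arrays, and limma called the difference between them. The chemokines Ccl2 and Ccl7, the cadherin Fat4, the G protein chain Gng11, Nr2f2 and the matrix protein Tnc were higher than round sperm in DA5-3 and lower in RahES, and Glrx, a glutaredoxin, and Prtg, protogenin, the reverse. The differences between DA5-3 and RahES on the log2 scale were 2.80 for Ccl2, 2.80 for Ccl7, 2.73 for Fat4, 2.13 for Gng11, 3.42 for Nr2f2, 2.15 for Tnc, -2.58 for Glrx and -2.30 for Prtg, with adjusted p from 3.1e-07 (Prtg) to 2.5e-04 (Gng11). With median centring the directions stayed opposite and called in 3 of the 8, Ccl7 (1.18 in DA5-3 and -1.69 in RahES), Fat4 (1.09 and -1.71) and Nr2f2 (1.28 and -2.22), and 5 lost the call in DA5-3 (Ccl2, Gng11 and Tnc) or in RahES (Glrx and Prtg). Glrx was under 100 on all DA5-3 and round sperm arrays, so its side there is not read and its difference from RahES rests on 1 of its probe sets, and Fat4 and Gng11 were so in RahES and round sperm. Nr2f2 rests on a probe set with which another disagreed, as given in the report.

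Of the 20 genes with the largest differences between DA5-3 and RahES, 4 also differed between the haploid lines, where 73 of 10538 genes were called. On the log2 scale RAH-6 exceeded RAH-2 by 2.25 for Col5a2, 2.01 for Nrk and 1.46 for Skap1, while for Adm the difference was -1.52, with RAH-2 higher. For Col5a2 the value was 3.26 without RAH-2 replicate 2. The mean over both lines thus covers unlike levels in these 4 genes.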

How the results depend on the processing

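The counts against round sperm stayed within 1.5 times of those reported under all alternatives, from 3611 (median centring) to 4789 (no filter) higher and from 2778 (filter at 200) to 3810 (median centring) lower. Against RahES an offset of 64 in place of 16 left 192 genes higher and 209 lower, since it shrinks differences of low signals, and the other settings gave 209 to 378 higher and 315 to 474 lower. Leaving out 1 array at a time gave 4562 to 4625 higher and 3093 to 3216 lower against round sperm, and 288 to 335 and 377 to 425 against RahES. In these fits and the next, the filter asked for 1 array fewer and could let in further genes, so the counts do not reflect the arrays alone. Without DA5-3 replicate 1 and round sperm replicate 1, the arrays with the largest actin 3′ to 5′ ratios of their groups, an alternative chosen after seeing the data, 4565 and 3128 were called. With the replicate number as a block, 4552 and 3107 genes were called against round sperm and 293 and 382 against RahES, and as the numbers do not pair the arrays this is no paired result. A median above that of all genes was found in 32 of 39 lists against round sperm (32 to 33 under the alternatives) and in 27 against RahES (23 to 29). Matrix and fibroblast genes were higher in DA5-3 than in RahES in 20 of 34 and 17 of 22 members without RAH-2 replicate 2. That array was left out because it reads high in fibroblast genes, and the filter was eased in the same way. Signals under 100 limit 3083 of the calls against round sperm and 190 of those against RahES to bounds. Ccnb1 turned from -1.12 to 1.61 with the mean over probe sets. Of the other genes given with a value in the report, Oaz1 and Odc1 lost their call with median centring, and Aurka (-1.34), Mtor (-1.18) and Tpi1 (-1.28) became lower. With quantile normalization Ccnb1, Ccnb2, Nop10 and Pttg1 lost theirs and Atp5f1b (1.21) became higher. With the mean over probe sets Cpt1a (0.75) lost its call and Actg1 (3.47) and Rps24 (1.98) became higher. With only the arrays compared another probe set of Fstl1 was taken, and its value turned from 1.53 to -0.19. When an array was left out, calls were lost in Fstl1 and in 5 of the 8 genes with opposite directions (Ccl2, Glrx, Gng11, Prtg and Tnc), and in no other gene given with a value. For Glrx the difference from RahES became -0.23 to -0.34 without any of 5 of the 6 RahES arrays, as the other probe set was then taken. Fstl1, Gata6 and, of those 8 genes, Ccl2, Glrx, Gng11, Nr2f2, Prtg and Tnc also lost calls against round sperm under some of the other settings.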

Other observations

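X-linked genes were higher in DA5-3 more often than autosomal genes. Of 324 X-linked genes tested 75.9% were higher in DA5-3 than in round sperm and 10.2% lower, with a median log2 fold change of 2.76. The 289 of them in none of the lists had 74.7%, 10.4% and 2.73. The autosomes together, with 10199 genes, had 42.2%, 30.1% and 0.51, and single autosomes had medians from 0.19 (chromosome 16) to 0.87 (chromosome 18). The 33 X-linked genes that were lower in DA5-3 included Tspan6, a tetraspanin, Akap4, Rlim, a ubiquitin ligase of X inactivation, and the histone H2al2l, which were chosen after their values were seen. Tspan6 had a mean signal of 4564 in DA5-3 and 25171 in round sperm, and Rlim 417 and 3786. Against RahES the X-linked median was -0.03, as over all genes, and 11 X-linked genes (3.40%) were higher and 25 (7.72%) lower, against 2.76% and 3.62% of all genes.

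Of 9780 probe sets without a gene name 3720 passed the filter and were fitted apart. Of these 55.5% were higher in DA5-3 than in round sperm and 19.7% lower, and against RahES 4.35% were higher and 3.23% lower.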
